A study of Rattus norvegicus with 14 samples.

Results

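Eph receptors and ephrins were followed through hippocampal cultures treated with allopregnanolone (Allo), a neurosteroid made from progesterone. The 10 genes described were taken by symbol from a list of family members: the EphA receptors Epha3, Epha4, Epha5 and Epha7, the EphB receptors Ephb1 and Ephb2, the ephrin-A ligands Efna3 and Efna5, and the ephrin-B ligands Efnb2 and Efnb3. All 10 were listed among the 18239 genes of the neuron table and the 31791 genes of the astrocyte table. The rule uses no measured value, but Efnb3 and Epha4 also stand on a gene list that the study drew up from these libraries, so their direction in neurons is not independent evidence.

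Eph receptors are receptor tyrosine kinases that bind ephrins on a neighboring cell, so that signals pass by contact. Signals run forward into the receptor-bearing cell and in reverse into the ephrin-bearing cell. Ephrin-A ligands are held by a lipid anchor and ephrin-B ligands span the membrane. In the hippocampus the family is known for guiding axons, for shaping dendritic spines, and for contact between astrocyte processes and spines.

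RNA was sequenced from primary neurons and astrocytes of embryonic day 18 Sprague Dawley rats. Every library came from a supplement-reduced condition, the aging model (AM), so a change due to AM cannot be read from them. AM was a different medium for each cell type: less B27 supplement for neurons, and charcoal-stripped serum for astrocytes. Neurons were kept in AM for 4 h and then given 100 nM Allo or ethanol vehicle (Veh) for 16 h, with 4 AM-Veh and 4 AM-Allo libraries. Astrocytes, enriched from mixed glia by shaking, were kept in AM for 24 h and then given the same agents for 24 h, with 3 AM-Veh and 3 AM-Allo libraries. The neuron libraries carry numbers with 2 parts, 1-1, 1-2, 2-1 and 2-2 in each group, and the first part is called the set here. Neither the labels nor the methods say what a set is or whether libraries came from separate cultures, so p-values measure only the spread between these libraries.

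The values are normalized counts, which are estimated read counts per gene scaled to adjust for the depth of each library. Depth, read from the step that 1 read makes in the values, was about 19400000 to 25200000 reads in neurons and 22200000 to 28900000 in astrocytes. The cultures labelled as neurons held RNA of several cell types. Their summed astrocyte markers reached 7727 to 10360 ppm, parts per 1000000 of a library's summed normalized counts, Gfap alone averaging 4178, against 1723 to 2067 for 6 neuron markers and 1719 to 2055 for 8 markers of the oligodendrocyte lineage. Of the microglia markers, Aif1, Cx3cr1 and Csf1r lay under 10 normalized counts. In the astrocyte cultures the astrocyte markers summed to 8883 to 9513 ppm, mesenchymal markers to 2533 to 2962 and neuron markers to 228 to 261. Most of that neuron sum came from Map2, at 155 ppm, and Gad1, at 77.0 against 50.2 in the neuron cultures. Syn1 averaged 9.45 ppm and Tubb3 1.31. Rbfox3 and Slc17a7, and Dcn and Lum of the mesenchymal markers, lay under 10 normalized counts there. In bulk RNA, fewer cells of a type and less RNA per cell cannot be told apart.

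The vehicle levels of 9 of the 10 genes did not overlap between the 2 kinds of culture, as was common: 79.7% of the 16068 genes listed in both tables and tested in either did not overlap. They are given in ppm of each table and were not tested, because the tables were normalized separately. Of the genes with more in the neuron cultures, Efnb3, a transmembrane ligand known as a repellent barrier for axons, stood at 126 ± 8.82 ppm (SD, n = 4) in neurons and 7.03 ± 0.786 (SD, n = 3) in astrocytes, a ratio of 17.8. Efna3, a lipid-anchored ligand of EphA receptors, stood at 7.16 ± 1.11 in neurons and 0.104 ± 0.0710 in astrocytes. Epha5, a receptor of developing hippocampal neurons, was at 99.0 ± 10.8 against 27.7 ± 1.14 ppm. Epha7 and the ligand Efna5 were higher in neurons too, with ratios of 5.03 and 5.80.

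The opposite order held for Efnb2, the ephrin-B ligand best known from blood vessels, at 55.1 ± 1.40 ppm in neurons and 254 ± 4.44 in astrocytes, which is 4.61 times the neuron level. Epha4, a receptor that binds ligands of both classes, was at 66.4 ± 2.32 in neurons and 134 ± 4.97 in astrocytes. Epha3 and Ephb2, the latter a receptor of excitatory synapses, were at 1.73 and 1.43 times their neuron level in astrocytes. Only the EphB receptor Ephb1 overlapped, at 152 ± 5.73 and 140 ± 10.6 ppm. Without transcript lengths, no order was made between different genes of the family. The neuron cultures also held much astrocyte RNA, so these are levels of mixed cultures rather than of pure cell types. Medium differed between neuron and astrocyte cultures too.

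**Figure D1:**
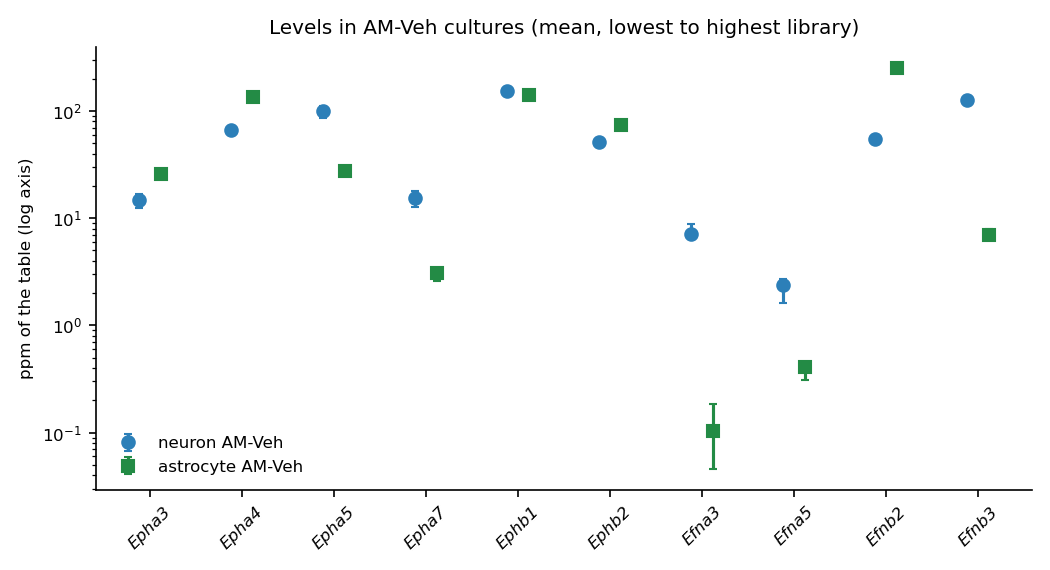
Level of each Eph and ephrin gene in AM-Veh cultures, in ppm of its table on a log axis. Points are means and bars run from the lowest to the highest library (4 neuron and 3 astrocyte libraries). Efnb3, Efna3, Epha5, Epha7 and Efna5 lay higher in neurons, Efnb2, Epha4, Epha3 and Ephb2 higher in astrocytes, and Ephb1 overlapped.

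Epha4 and Efnb3, a receptor and one of its ligands, were the members called in neurons when Allo was compared with vehicle, and both were higher, at 1.17 and 1.15 times their vehicle level. The comparison asked how Allo changes these transcripts in AM medium. It used limma on log2(normalized count + 1) across 15314 genes with a mean of at least 10, with a call at an unadjusted p under 0.05, which is the study's threshold. All 10 members passed that minimum, and 2 were called. Across all genes tested, 5.69% were called, 3.21% as higher and 2.48% as lower. By Benjamini-Hochberg adjusted p, 0 of the 10 passed, beside 4 genes of all tested (0.0261%).

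Epha4 in AM-Veh stood at 1533, 1430, 1443 and 1476 normalized counts in libraries 1-1, 1-2, 2-1 and 2-2. In AM-Allo it stood at 1577, 1637, 1749 and 1928 in the same order. Every AM-Allo library lay above every AM-Veh library, with the highest 2 in set 2. The means were 1471 ± 45.98 and 1723 ± 154 (SD, n = 4 each), a ratio of 1.17. The log2 difference was 0.22 (SE 0.059, 95% interval 0.09 to 0.35), with adjusted p = 0.569 by limma. The exact two-sided permutation test gave p = 0.0286, the smallest that 4 against 4 libraries allow. Of all genes tested, 3.95% had groups that did not overlap in this comparison.

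Efnb3 in AM-Veh stood at 3023, 2619, 2831 and 2647 normalized counts in the same library order. In AM-Allo it stood at 3017, 2928, 3412 and 3398. The groups overlapped because AM-Veh 1-1 lay above both AM-Allo libraries of set 1, whereas both AM-Allo libraries of set 2 lay above all others. The means were 2780 ± 187 and 3189 ± 252 (SD, n = 4 each), a ratio of 1.15. The log2 difference was 0.20 (SE 0.062, 95% interval 0.06 to 0.33), with adjusted p = 0.656 by limma and p = 0.0857 in the exact permutation test.

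Libraries of the same number deviated together, and those of the same set nearly as much, so both were fitted as a block. With the set as a replicate block, Epha4 passed the adjusted threshold in limma (adjusted p = 0.0465) and Efnb3 did not (adjusted p = 0.107), beside 104 genes of all tested (0.679%). With the whole number as the block, neither passed, at adjusted p = 0.0657 for Epha4 and 0.104 for Efnb3 in limma, beside 93 genes of all (0.607%). By unadjusted p the same 2 members were called with either block, against 11.0% of all genes with the set and 10.7% with the whole number as the block. Both were called whichever single library was left out, with log2 differences from 0.17 to 0.27 for Epha4 and from 0.16 to 0.24 for Efnb3. On the deposited variance-stabilized values, from which the difference between sets had been removed, 4 members were called, with Efna3 and Ephb1 added, against 14.4% of all genes. That fit did not count the removal of the sets. With the set in the model too, Efna3 and Ephb1 were not called (unadjusted p = 0.0524 and 0.0685 by limma).

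The other 8 genes were not called. Among the EphA receptors, Epha5 ran from 1876 to 2470 normalized counts in AM-Veh and from 1903 to 2918 in AM-Allo. Its log2 difference was 0.11 (SE 0.14, 95% interval -0.20 to 0.41). That interval also holds the spread between sets. With the set as a replicate block the difference was the same, with an SE of 0.054, and Epha5 was still not called (unadjusted p = 0.0674 by limma). Epha3 ran from 275.6 to 368 in AM-Veh and from 301.8 to 370.8 in AM-Allo. Epha7, which is known from the patterning of cortical projections, ran from 286.9 to 396.4 in AM-Veh and from 302.5 to 350.2 in AM-Allo. The intervals of the log2 difference were -0.19 to 0.28 for Epha3 and -0.26 to 0.19 for Epha7, so changes in either direction of that size remain possible.

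The EphB receptors were measured more tightly. Ephb1 stood at 3519, 3367, 3293 and 3314 normalized counts in AM-Veh and at 3635, 3709, 3278 and 3413 in AM-Allo. Ephb2 stood at 1199, 1132, 1089 and 1179 in AM-Veh and at 1194, 1207, 1128 and 1145 in AM-Allo. The groups overlapped for both, and the 95% intervals of the log2 difference were -0.04 to 0.15 for Ephb1 and -0.07 to 0.12 for Ephb2.

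Among the ligands, Efnb2 stood at 1245, 1193, 1249 and 1197 normalized counts in AM-Veh and at 1198, 1234, 1383 and 1296 in AM-Allo. Efna3 stood at 147.2, 142.4, 196.6 and 148.3 in AM-Veh and at 159.5, 167.4, 200.9 and 203.3 in AM-Allo. Its AM-Veh library 2-1 lay inside the AM-Allo range and the other 3 lay below it. The log2 difference of Efna3 was 0.21 (95% interval -0.07 to 0.49), about as large as that of Epha4, with p = 0.171 in the exact permutation test. Without AM-Veh 2-1 Efna3 was called, at a log2 difference of 0.31. Efna5, which had few counts, ran from 36.48 to 59.69 in AM-Veh and from 32.41 to 55.29 in AM-Allo, with an interval from -0.67 to 0.28. Of the 10 members 8 had a difference above 0, with a median of 0.06 on the log2 scale against -0.0015 over all genes tested.

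**Figure D2:**
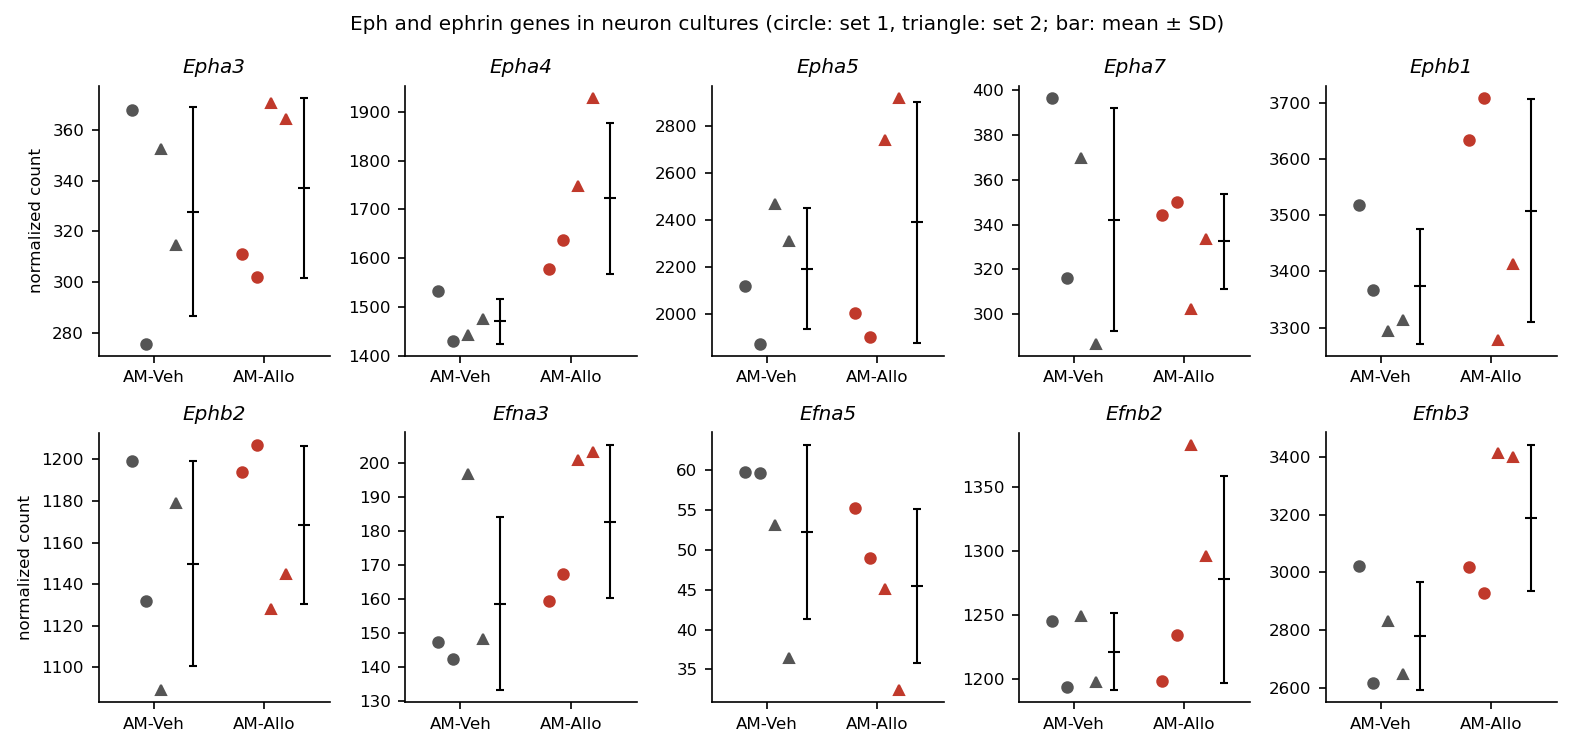
Normalized counts of the 10 genes in each neuron library, AM-Veh in grey and AM-Allo in red, with circles for set 1 and triangles for set 2, and bars for mean ± SD of 4 libraries. The axes do not start at 0 and differ between panels. For Epha4 all 4 AM-Allo libraries lie above all AM-Veh libraries, and for Efnb3 the 2 AM-Allo libraries of set 2 stand highest.

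Neuron markers were read in the same libraries. Their sum in AM-Veh was 1913, 1813, 1827 and 1723 ppm and in AM-Allo 1960, 1877, 2067 and 1988. It was highest in the AM-Allo libraries of set 2, where Efnb3 and Epha4 were highest, and of 6 neuron markers tested 4 were higher, 3 of them called, and 2 were lower. The summed astrocyte markers overlapped, at 7790 to 10360 in AM-Veh and 7727 to 10050 in AM-Allo. Oligodendrocyte lineage markers summed to 1923, 1946, 1719 and 1739 ppm in AM-Veh and to 2055, 2025, 1760 and 1722 in AM-Allo, with 7 of 8 higher, a median log2 difference of 0.07 and 0 called by limma at an unadjusted p under 0.05. The part of these markers in the differences was not tested. With the mean log2 level of the neuron markers as a covariate, which was added after seeing the data, the log2 difference was 0.21 (SE 0.050) for Epha4 and 0.17 (SE 0.034) for Efnb3, both called, against 6.87% of all genes. In that fit 4 of the 6 neuron markers were called too, with a median of 0.07 against 0.08 without the covariate. The covariate is the mean of these same markers, so their average difference was removed by construction. The calls show only how single markers spread around that average.

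**Figure D3:**
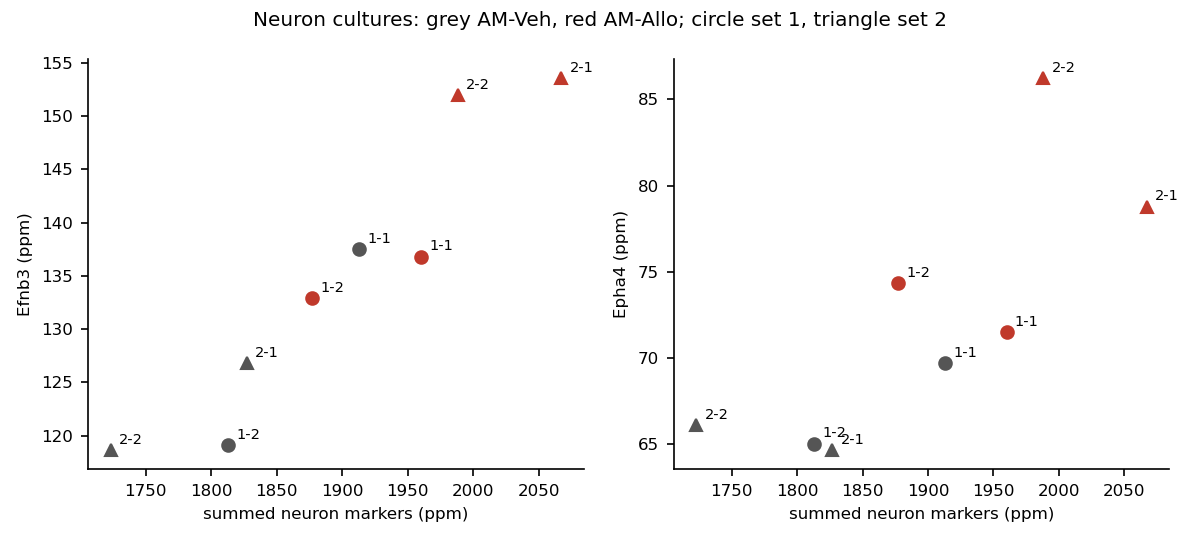
Efnb3 (left) and Epha4 (right) against the summed level of 6 neuron markers in the 8 neuron libraries, both axes in ppm and not starting at 0, AM-Veh in grey and AM-Allo in red, circles for set 1 and triangles for set 2. The AM-Allo libraries 2-1 and 2-2 stand highest on both axes.

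The difference with Allo was larger in set 2 than in set 1 for Epha5, Efnb3 and Epha4. The interaction of treatment and set was tested by limma over all 8 libraries and called 3 of 10 members, all with the larger difference in set 2. Across all genes tested 9.53% were called, 5.44% in that direction. By adjusted p 0 of 10 members passed, beside 12 genes of all tested (0.0784%). For Epha5 the log2 difference with Allo was -0.03 in set 1 and 0.24 in set 2, an interaction of 0.27 (SE 0.081, adjusted p = 0.274 by limma). In set 1 the Epha5 groups overlapped, and in set 2 both AM-Allo libraries lay above both AM-Veh libraries.

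For Efnb3 the log2 difference was 0.08 in set 1 and 0.31 in set 2 (interaction 0.24, SE 0.078, adjusted p = 0.335 by limma). For Epha4 it was 0.12 and 0.33 (interaction 0.21, SE 0.077, adjusted p = 0.378 by limma). Both AM-Allo libraries of Epha4 lay above both AM-Veh libraries in each set, and those of Efnb3 did so in set 2 but overlapped in set 1. The same order held in set 2 for Epha3, Epha5, Efna3 and Efnb2, and in set 1 for Efna3 and Ephb1. Efna5 had the reverse order in set 1. So few libraries per group often separate by chance, and the share of all genes that did so within a set is not given here. With single libraries left out the interaction ran from 0.18 to 0.36 for Epha5, 0.13 to 0.34 for Efnb3 and 0.14 to 0.28 for Epha4. Without the mean-variance trend 0 of the 10 members were called. The neuron markers behaved alike, with an interaction above 0 in 6 of 6 tested, a median of 0.30 and 5 called. With the neuron marker level as a covariate the interaction was 0.08 (SE 0.12) for Epha5, -0.02 (SE 0.10) for Efnb3 and 0.29 (SE 0.13) for Epha4. Epha4 was the 1 member called in that fit. The covariate is the mean of the same markers, so their own average interaction was removed by construction, and the SEs were larger than without it. The share of all genes called without the trend or with the covariate is not given here, so these counts are not read as particular to the members.

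**Figure D4:**
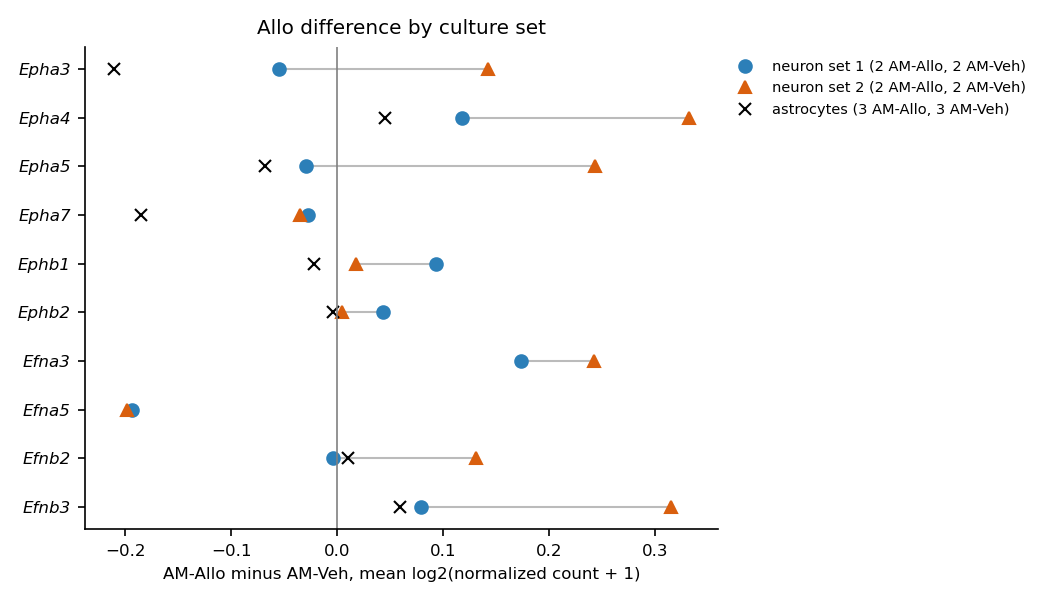
Difference between AM-Allo and AM-Veh in mean log2(normalized count + 1) for each gene, in neuron set 1 (circles), neuron set 2 (triangles) and astrocytes (crosses). Efna3 and Efna5 have no cross because their means in astrocytes lay under 10 normalized counts. Epha5, Efnb3 and Epha4 show the called gaps between the sets.

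Epha5 was the member whose neuron libraries did not overlap between the sets, whatever the treatment; the sets of the other 9 overlapped. It stood between 1876 and 2119 normalized counts in the 4 libraries of set 1 and between 2312 and 2918 in the 4 of set 2, without overlap. The means were 1976 ± 111 and 2610 ± 271 (SD, n = 4 each), a log2 difference of 0.40 (SE 0.054, adjusted p = 0.000105 by limma with treatment in the model). Of all genes tested, 19.6% did not overlap between sets, 29.3% were called (15.3% higher and 14.1% lower in set 2) and 17.2% passed the adjusted threshold.

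Of the 10 members 4 were called between sets, 2 higher and 2 lower in set 2, and 2 passed the adjusted threshold. Ephb1 was lower in set 2, 3324 ± 60.7 against 3557 ± 149 normalized counts (log2 difference -0.10, adjusted p = 0.0296 by limma). Efna3 was higher and Efna5 lower in set 2, with log2 differences of 0.27 and -0.43 and adjusted p of 0.0729 and 0.109 by limma. Without AM-Veh 1-1 the count rose to 8 and without AM-Veh 2-2 to 7. The share of all genes called in those fits is not given here, so the rise is not read as particular to the members. Astrocyte markers were at 7727 to 8254 ppm in set 1 and 9523 to 10360 in set 2, and oligodendrocyte lineage markers at 1923 to 2055 and 1719 to 1760; their part in these differences was not tested.

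The promoters of the members called by limma at an adjusted p under 0.05 between sets, and of Epha3, the member called in astrocytes, are shown so that their letters can be read against the family. They are the 250 bases before the start of the gene in RefSeq on the rat build GRCr8, given 5′ to 3′ on the gene's strand. Capitals mark the cyclic AMP response element core TGACG or its reverse complement, searched because the study concerns signaling to CREB, the factor that binds it. Epha5 lies on the plus strand at chr14:24007872-24008121, Ephb1 on the minus strand at chr8:111823760-111824009 and Epha3 on the minus strand at chr11:14920426-14920675.
Epha5: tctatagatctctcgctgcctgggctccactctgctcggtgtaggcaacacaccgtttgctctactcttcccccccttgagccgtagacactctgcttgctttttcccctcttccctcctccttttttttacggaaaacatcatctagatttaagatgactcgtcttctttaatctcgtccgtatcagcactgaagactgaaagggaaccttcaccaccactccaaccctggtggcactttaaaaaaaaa
Ephb1: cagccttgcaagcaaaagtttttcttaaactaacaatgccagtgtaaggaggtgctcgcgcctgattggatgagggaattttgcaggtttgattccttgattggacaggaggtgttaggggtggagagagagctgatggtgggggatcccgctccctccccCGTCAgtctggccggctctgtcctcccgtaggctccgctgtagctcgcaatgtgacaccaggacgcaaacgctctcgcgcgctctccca
Epha3: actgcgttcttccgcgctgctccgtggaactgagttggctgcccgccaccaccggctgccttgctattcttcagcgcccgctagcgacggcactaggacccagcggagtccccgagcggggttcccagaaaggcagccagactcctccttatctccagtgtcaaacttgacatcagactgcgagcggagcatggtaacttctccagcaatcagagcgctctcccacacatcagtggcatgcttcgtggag

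The core was found on either strand in Ephb1 alone among the 8 members with a promoter in the RefSeq table, against 18.2% of all 33469 promoters. The palindrome TGACGTCA, which contains the core, was found in 0 of 8 members and in 1.59% of all. The GC box GGGCGG was found in Efna3 and Epha7, 2 of 8, against 30.5% of all promoters. Epha5 had the lowest GC content of the 8, 47.6%, and Efnb2 the highest, 80.4%, with a median of 51.2% over all promoters. These are matches of letters and not measured sites.

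In astrocytes Epha3 was the member called with Allo, and it was lower. The EphA receptor stood at 630.1, 617 and 585.9 normalized counts in AM-Veh and at 570.4, 510.7 and 504.3 in AM-Allo. Every AM-Allo library lay below every AM-Veh library. The means were 611 ± 22.7 and 528 ± 36.4 (SD, n = 3 each), a ratio of 0.865. The log2 difference was -0.21 (SE 0.068, 95% interval -0.36 to -0.06), with adjusted p = 0.526 by limma. The exact permutation test gave p = 0.1, the smallest that 3 against 3 libraries allow. It was called in all alternatives run, with a log2 difference from -0.27 to -0.18 when single libraries were left out. AM-Allo 3 stood apart on the first principal component of the astrocyte libraries (29.9 against -12.5 to 3.68) and AM-Allo 2 on the second (24 against -14.1 to 2.80), and Epha3 was called without either. Astrocyte markers were lower with Allo in 5 of 6, with 2 called, and their sum was 8883 to 9513 ppm in AM-Veh and 8906 to 9040 in AM-Allo. Microglia markers were lower in 4 of 6, with 1 called, and summed to 43.7 to 56.7 and 43.4 to 48.8 ppm. Their part in the Epha3 difference was not tested.

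Of the 10 members 8 passed the minimum in astrocytes and 1 was called, against 7.01% of the 15380 genes tested, 3.72% as higher and 3.29% as lower. By adjusted p 0 of the 8 passed, beside 1 gene of all tested (0.00650%). Groups that did not overlap were seen in 12.5% of genes. Epha5 was also without overlap, at 642, 650.2 and 692.6 normalized counts with vehicle and at 626.9, 632.3 and 632.5 with Allo, but was not called (log2 difference -0.07, 95% interval -0.19 to 0.06). Epha7 ran from 62.3 to 81.88 in AM-Veh and from 55.9 to 78.03 in AM-Allo.

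Epha4 and Efnb3, which were called as higher in neurons, overlapped between groups in astrocytes. Epha4 stood at 3063, 3307 and 3264 normalized counts in AM-Veh and at 3466, 3249 and 3223 in AM-Allo (log2 difference 0.04, 95% interval -0.05 to 0.14). Efnb3 ran from 153 to 190 in AM-Veh and from 169.5 to 177.2 in AM-Allo, at a depth of counts far below that in neurons. Efnb2 stood at 6105, 6143 and 5938 in AM-Veh and 6196, 5907 and 6209 in AM-Allo. Whether the Allo difference of a gene differs between neurons and astrocytes was not tested.

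The EphB receptors overlapped in astrocytes as well. Ephb1 stood at 3055, 3397 and 3567 normalized counts in AM-Veh and at 3417, 3220 and 3210 in AM-Allo. Ephb2 stood at 1657, 1838 and 1808 in AM-Veh and at 1615, 1826 and 1851 in AM-Allo. The lowest library of Ephb1 was in AM-Veh and that of Ephb2 in AM-Allo, and the 95% intervals of the log2 difference were -0.14 to 0.09 and -0.13 to 0.12. The 2 ephrin-A ligands were too low to test. Efna5 ran from 5.65 to 11.9 normalized counts over the 6 libraries. Efna3 ran from 0 to 8.61, and its 0, in AM-Allo 3, allows up to about 2.50 normalized counts (3 reads, counting error only).

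**Figure D5:**
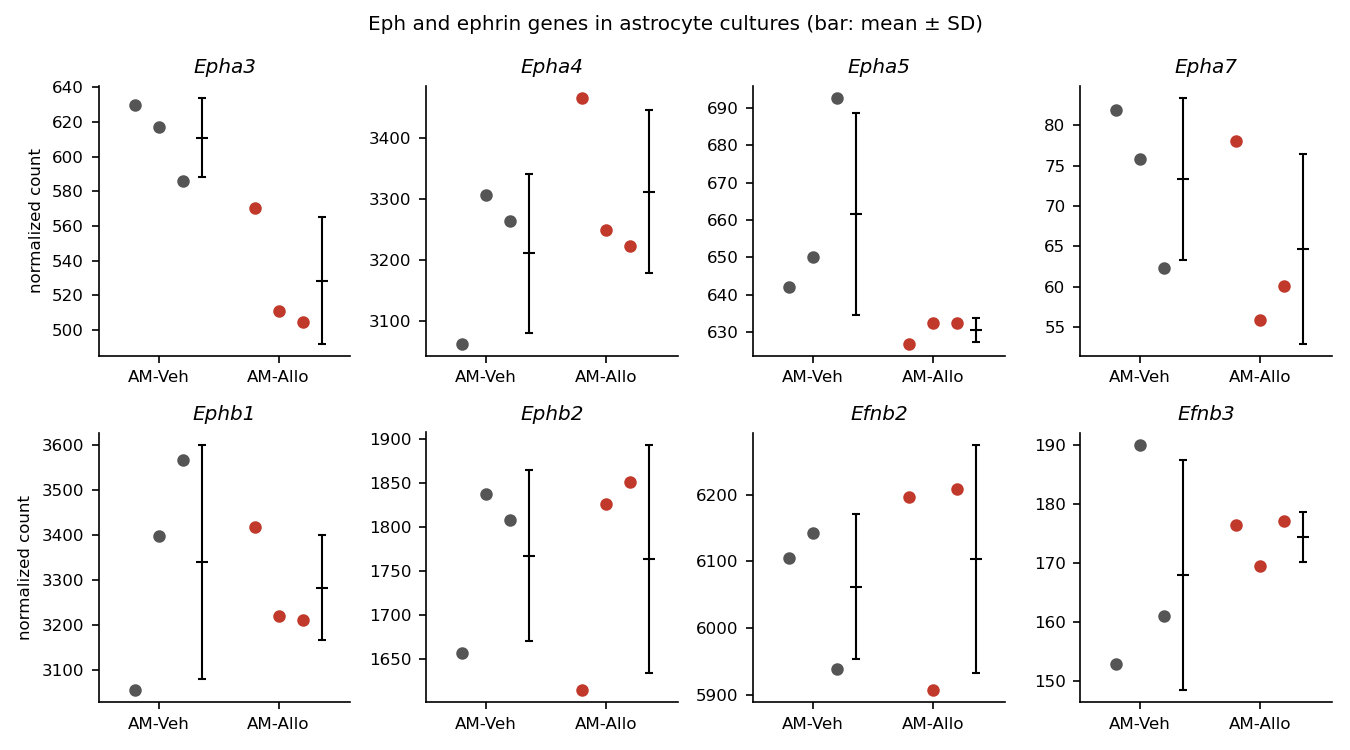
Normalized counts of the 8 genes tested in astrocytes in each library, AM-Veh in grey and AM-Allo in red, with bars for mean ± SD of 3 libraries. The axes do not start at 0 and differ between panels. Epha3 and Epha5 have all AM-Allo libraries below all AM-Veh libraries, and only Epha3 was called.

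The rest of the family gave few calls. Of 12 further Eph receptors and ephrins, 11 were listed in each table and Epha6 in neither. In neurons 10 were tested and 1 was called, Epha2, a receptor better known from epithelia, which was lower with Allo at 60.3 ± 8.48 against 75.9 ± 8.04 normalized counts (log2 difference -0.33, SE 0.14, adjusted p = 0.846 by limma). The call was lost in 6 of the 8 fits that left out 1 library (all but those without AM-Veh 2-2 or AM-Allo 1-1), where the log2 difference ran from -0.41 to -0.25 over all 8, and with the neuron marker covariate. Epha1 was below the minimum. The other 9 had log2 differences from -0.25 for Efna4 to 0.11 for Epha10, with Epha8 at 0.07, Ephb3 at -0.05, Ephb4 at -0.09, Ephb6 at -0.04, Efna1 at 0.06, Efna2 at 0.07 and Efnb1 at 0.01. Efnb1, the ephrin-B ligand outside the list of 10, averaged 1057 ± 61.5 and 1068 ± 64.8 normalized counts, a 95% interval of the log2 difference from -0.11 to 0.14.

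In astrocytes 9 of these genes were tested and 0 were called by limma at an unadjusted p under 0.05. All 9 estimates were above 0, with a median of 0.06 against 0.0014 over all genes, and 7 of 9 were above 0 under upper-quartile scaling and 8 under quantile normalization. The estimates ran from 0.0022 for Epha2 to 0.11 for Efna4. Ephb4, a receptor for Efnb2, averaged 979 ± 37.4 in AM-Veh and 1024 ± 49.0 in AM-Allo. Epha8 and Epha10 were at 0 in every astrocyte library, whereas in neurons they averaged 93.7 and 74.1 normalized counts in AM-Veh.

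Proteins that carry, end or shape Eph and ephrin signals were read from 3 lists of 40 genes in all. In neurons 6 of 38 tested were called, 3 higher and 3 lower, against 5.69% of all genes tested, 3.21% higher and 2.48% lower, and the median log2 difference was 0.01. Ptpro, a phosphatase that acts on Eph receptors, averaged 3968 ± 149 normalized counts with vehicle and 4319 ± 82.2 with Allo (log2 difference 0.12, SE 0.034). Fyn, a Src family kinase downstream of both receptors and ephrins, was higher by 0.07, and Afdn, a scaffold that binds Eph receptors through its PDZ domain, by 0.10. Rin1, which promotes uptake of Epha4, was lower at 828 ± 85.4 against 966 ± 88.7 (log2 difference -0.22, SE 0.083). Rhoa, the GTPase of growth cone collapse, was lower by a log2 difference of -0.06 and Acp1, another phosphatase of Eph receptors, by one of -0.08.

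None of these 6 passed adjustment by limma. When each of the 8 libraries was left out in turn, Ptpro was called in 8 fits, Rin1 in 5, Afdn in 4, Fyn in 3, and Rhoa and Acp1 in 1 each. Groups did not overlap for Ptpro, Fyn, Rhoa and Acp1, as was the case for 3.95% of all genes tested. Fyn, Rhoa and Afdn stand on the gene list that the study drew up from these libraries. In astrocytes 0 of 38 were called by limma at an unadjusted p under 0.05, with 18 estimates above 0 and 20 below.

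Over the 8 neuron libraries, the genes most like Epha4 in log2 level were Syt7 (Pearson r = 0.986), Slc25a51 (0.979) and Runx1t1 (0.976), among 11781 genes with a mean of at least 100. Those most like Efnb3 were Stmn4 (0.981), Plk2 (0.979) and L1cam (0.976). Epha4 and Efnb3 had r = 0.896 with each other. These are descriptions over libraries that share groups and sets, picked as the highest of many genes.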

How the data were processed

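Poly(A) RNA from rat hippocampal neurons (8 libraries) and astrocytes (6 libraries) was sequenced by the authors as paired-end reads. The authors quantified transcripts with Salmon 0.14 on the rat Ensembl annotation, summed them with tximport and used DESeq2 1.18.1 to make the deposited normalized counts (a signal that is never negative) and the deposited variance-stabilized (VST) log2 values. Estimated counts share reads between close paralogs by a model, which can move reads among family members. The neuron VST values had the same mean in both sets for all 18239 genes (largest difference 7.5e-09), so they served no comparison of sets.

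Raw counts were not used here, so limma 3.58.1 (lmFit, eBayes with trend, R 4.3.3) on log2(normalized count + 1) stands in for the study's DESeq2. It was fitted in each cell type across genes with a mean of at least 10, without a block, two-sided, with Benjamini-Hochberg adjustment over all genes tested. A fold change on this scale understates changes of low genes. Exact permutation tests used SciPy 1.17.1. The scripts were tested on simulated data. Deviations from group means correlated at 0.229 to 0.296 between neuron libraries of the same number. The fit without a block and the permutation test did not use this pairing, which entered only in the alternatives with a replicate block. Libraries of the same set but another number correlated at 0.185 to 0.236 and those of different sets at -0.319 to -0.150, so the pattern follows the set about as much as the number. Same-numbered libraries correlated at -0.007 to 0.024 in astrocytes, which were not taken as paired. The genes described and the lists were chosen with earlier results of these data known. Named were the 10 members and other family members, at most 6 called signaling genes per cell type by smallest p, marker sums, and the 3 genes most like Epha4 and Efnb3. Alternatives covered pseudocount, filter, VST values, scaling, trend, robust fit, replicate block, neuron marker covariate and single libraries left out. Gene names were used as deposited, and promoters came from RefSeq GRCr8. The promoters of Epha4 and Efnb3 are not printed here.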

Additional observations from a re-analysis of the deposited data

Results flagged for a closer look

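Efna3 in the AM-Veh neuron library 2-1 stood at 196.6 normalized counts, far from the other 3 AM-Veh libraries at 142.4 to 148.3; chance marks about 1 in 20 such groups. The AM-Allo libraries of set 2 stood at 200.9 and 203.3, and those of set 1 at 159.5 and 167.4.

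For 3 genes the Allo difference was larger in neuron set 2 than in set 1 by the interaction test, by 0.27 for Epha5, 0.24 for Efnb3 and 0.21 for Epha4 on the log2 scale by limma. The adjusted p ran from 0.274 to 0.378. The neuron markers had an interaction above 0 in 6 of 6 tested. With their mean level as a covariate the values for the 3 genes were 0.08 (SE 0.12), -0.02 (SE 0.10) and 0.29 (SE 0.13). What a set stands for is not stated, so its source cannot be told apart from any other difference between the sets.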

How the results depend on the processing

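With the set or the whole number as a replicate block, 2 members were called in neurons, as without it, but Epha4 passed the adjusted threshold with the set as the block (adjusted p = 0.0465 by limma), and the calls over all genes by unadjusted p went from 5.69% to 11.0% and 10.7%. The block changed no other call of a member. On VST values 4 members were called in neurons in place of 2, with Efna3 and Ephb1 added, and 2 when the set was blocked too. Between sets, single libraries left out gave 3 to 8 calls in place of 4. For the interaction the fit without the trend gave 0 calls in place of 3 and the neuron marker covariate 1. The share of all genes called in these fits is not given here. Where a single library was left in an arm it was assumed to vary like the others, and only the size of the interaction is given. The cause of these shifts was not tested.

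Some differences turned sign, and all but 1 of them had not been called before the change of setting. In astrocytes Efnb2 was at -0.0044 under upper-quartile scaling and -0.0036 under quantile normalization. For the interaction, Efna5 was at 0.0038 on VST values, and with the marker covariate Epha3 was at -0.27, Ephb2 at 0.013 and Efna3 at -0.23. Efnb3, called without that covariate but not with it, was at -0.020 with it. With single libraries left out the log2 difference with Allo in neurons ran from -0.037 to 0.10 for Epha3, -0.11 to 0.043 for Epha7 and -0.0019 to 0.044 for Ephb2. In astrocytes it ran from -0.085 to 0.027 for Ephb1, -0.050 to 0.058 for Ephb2, -0.0051 to 0.033 for Efnb2 and -0.0045 to 0.15 for Efnb3. The interaction ran from -0.011 to 0.41 for Epha3, -0.19 to 0.17 for Epha7, -0.097 to 0.017 for Ephb2, -0.13 to 0.27 for Efna3 and -0.27 to 0.26 for Efna5.

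Of the other values, 374 kept direction and side of the threshold under other settings and 242 with single libraries left out. VST values could not serve the comparison of sets. Low counts limited Efna3 and Efna5 in astrocytes.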
